A study of Mus musculus with 2 samples.

Results

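The ribosome of the cytosol is assembled from ribosomal RNA and a fixed set of proteins, most of them present once in each small or large subunit. Their mRNAs are among the most abundant in growing cells. Many carry a run of pyrimidines at the very 5′ end of the transcript, the 5′ terminal oligopyrimidine tract, through which their translation follows nutrient and growth factor signalling. The genes examined here were the cytosolic ribosomal protein genes, chosen by symbol with no use of their values: every Rps or Rpl symbol with a number and at most 1 trailing a or x, with Rplp0, Rplp1, Rplp2, Rpsa and Fau. There were 77 such genes among the 31053 in the files, 31 of the small subunit and 46 of the large subunit. All 77 were detected in both libraries, and all 77 reached 100 UMIs summed over the libraries, as did 10719 genes in total. A UMI is a molecular barcode that tags 1 captured mRNA, so that amplified copies are counted once.

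The libraries were made with 10x Genomics 3′ single-cell chemistry from organoids of mouse urothelium, the lining of the urinary bladder, grown from normal tissue. Wild-type C57BL/6 mice aged 8 to 10 weeks were the source in both cases. Proliferative organoids (P) grew in complete medium with WNT3A, RSPO1, EGF, Noggin and the TGF-β receptor inhibitor LY2157299, and differentiated organoids (D) were first grown in complete medium, then reseeded and kept without those 5 factors. The organoids came from unsorted urothelial cells, 10000 cells were loaded per condition, and each condition was 1 library. No replicate spread exists, so that no difference between P and D could be tested; the intervals given below are exact 95% intervals that cover counting error only. Medium, culture, library and sequencing cannot be told apart as sources of a difference between P and D.

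A cell was kept if it had more than 800 genes detected and if mitochondrial (mt-) genes took no more than 12% of its UMIs. In P these were 6818 of 8194 barcodes with 26681469 UMIs, a median of 3405.5 UMIs and 1152 genes per cell. In D these were 4896 of 6975 barcodes with 20305621 UMIs, a median of 3227.5 UMIs and 1346.5 genes per cell. The libraries had 10 barcode sequences in common, 6 of them among kept cells. Mitochondrial genes took 5.91% of the UMIs of kept cells in P and 7.13% in D. Markers of other cell types were scarce. The 6 fibroblast markers together stood at 1.99 CPM (UMIs scaled to a library total of 1000000) in P, with Col1a1, Col1a2 and Col3a1 at 0 UMIs, and at 62.5 CPM in D, with Col1a2 at 0. The 5 leukocyte markers stood at 0.562 CPM in P and 19.8 CPM in D, the 4 endothelial markers at 5.17 and 3.30 CPM with Kdr and Cdh5 at 0 in both, and the 4 globin genes had no UMI.

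Pyrimidine runs were searched for around the start sites of the ribosomal protein genes. RefSeq start-site windows on GRCm38.p6 were available for 57 of the 77 genes, as 67 windows. A run of at least 8 consecutive C or T bases within 20 bases either side of the start lay on the strand of the gene, which reads as the mRNA does, in 44.8% of these windows. The share was 16.0% in 32851 windows of all genes. On the other strand the shares were 7.46% and 17.7%. The letters CTTTC, which overlap such a run by their composition, were found in 28.4% of the ribosomal protein windows and 5.49% of all windows, and on the other strand in 4.48% and 4.86%. A match is a description of the letters and not evidence of a functional tract. Below are the 30 bases centred on the start site, with the longest pyrimidine run in capitals, for genes at both ends of the range of differences between D and P and for genes that varied between cell clusters.

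Rpl13a: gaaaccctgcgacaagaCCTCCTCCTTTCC
Rps18: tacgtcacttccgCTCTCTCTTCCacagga
Rpl12: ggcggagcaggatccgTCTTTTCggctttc
Rps9: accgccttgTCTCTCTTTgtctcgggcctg
Rpl9: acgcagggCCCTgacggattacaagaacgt
Fau: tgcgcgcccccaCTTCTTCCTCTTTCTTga
Rps27: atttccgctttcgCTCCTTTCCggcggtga
Rps6: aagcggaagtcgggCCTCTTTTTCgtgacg

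Each sequence is written 5′ to 3′ on the strand of the gene. The windows of Rpl13a (chr7:45128731-45128760, minus strand), Rps18 (chr17:33955651-33955680, minus strand) and Rpl12 (chr2:32961697-32961726, plus strand) belong to genes with 3 of the 6 lowest ratios of D over P. Those of Rps9 (chr7:3704026-3704055, plus strand) and Rpl9 (chr5:65391417-65391446, minus strand) belong to genes with 2 of the 6 highest. Fau (chr19:6057932-6057961, plus strand), Rps27 (chr3:90213634-90213663, minus strand) and Rps6 (chr4:86857353-86857382, minus strand) varied between clusters. In the printed windows the run was 13 bases long in Rpl13a, 16 in Fau and 4 in Rpl9. Over all genes with a window, the run went with no clear difference in the ratio: the median log2 ratio of D over P was -0.81 (SD over genes 0.18) in the 29 genes with a run of at least 8 bases and -0.84 (SD over genes 0.16) in the 28 without.

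The first question was how much of the mRNA of P and D organoids the ribosomal protein genes made up. They took 37.4% of all UMIs in P (interval 37.3 to 37.4) and 21.2% in D (interval 21.2 to 21.2). Per cell, the median share was 38.9% in P, with quartiles of 34.2% and 42.9%, and 21.5% in D, with quartiles of 18.6% and 24.3%. The cell distributions overlapped little: 163 P cells, 2.39% of the library, lay below the median of D, and 2 D cells, 0.0408% of the library, lay above the median of P. A P cell held on average 1462 ribosomal protein UMIs and 2451 others, and a D cell 879 ribosomal protein UMIs and 3268 others, so that both counts differed. With mitochondrial UMIs left out of the total, the shares were 39.7% in P and 22.8% in D.

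**Figure D1:**
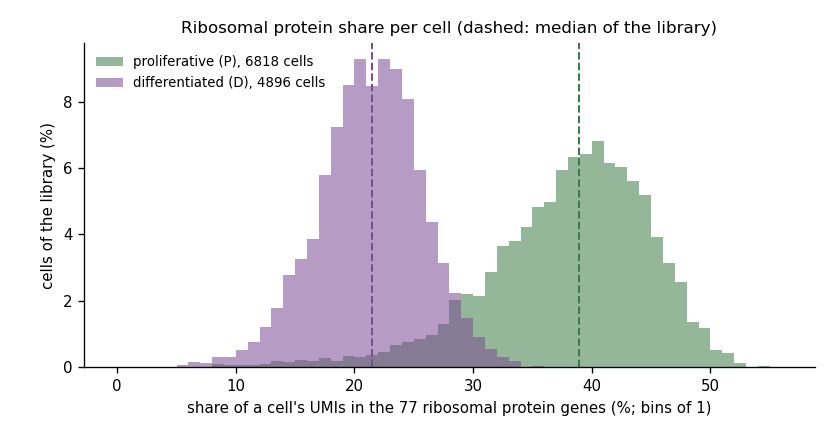
Share of each kept cell's UMIs in the 77 ribosomal protein genes (x axis, %, bins of 1) against the percent of the library's cells (y axis), with P in green, D in purple and a dashed line at each median. The median is 38.9% in P and 21.5% in D, and 2.39% of P cells lie below the median of D.

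The share also varied with depth and mitochondrial content inside each library. From the shallowest to the deepest quartile of cells, the median share went from 40.6% to 36.4% in P and from 22.3% to 20.7% in D. From cells with at most 3% to those with over 9% mitochondrial UMIs it went from 41.9% (640 cells) to 30.3% (344 cells) in P. In D it was 17.6% in the 14 cells with at most 3%, 22.0% in the 1488 cells between 3% and 6%, and 18.6% in the 510 cells between 9% and 12%. In every depth quartile, and in every mitochondrial range, the median was higher in P than in D; the part of either measure in the difference was not tested.

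Gene by gene, the ribosomal protein mRNAs were lower together. The log2 ratio of D over P, computed on CPM, had a median of -0.83 over the 77 genes, a 1.78-fold lower level in D, and every gene lay between -1.36 and -0.42. All 77 were lower in D, where 22.6% of the 10719 genes tested were lower, and all 77 had a counting interval wholly below 0, where this held for 15% of all genes. The median ratio over all genes tested was 0.41. Under scaling to the library total, the lower share of these genes in D enters the ratio of every other gene. Scaled instead by the median ratio over 8939 genes that reached 100 UMIs in both, a shift of 0.42, the median of the ribosomal protein genes was -1.25. Scaled by UMIs outside mitochondrial and ribosomal protein genes, it was -1.17.

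Around this common shift, the genes differed by more than counting error. The SD of the log2 ratio over the 77 genes was 0.18. The counting interval lay wholly below the median of the set in 31 genes, wholly above it in 34, and held it in 12. These counts have no counterpart over all genes. They depend on depth, since intervals narrow with more UMIs: that of Rpl10, with 1713 UMIs in P, ran from -0.98 to -0.72. Of the 77, 9 genes were at least 2-fold lower in D, against 4.73% of all genes tested. This count depended on the cells and the scaling: it was 5 with a stricter cell filter, 26 over all barcodes, and 65 or 70 with the scalings that gave medians of -1.17 and -1.25. Rps16 just reached this mark, with 6923 CPM in P and 3456 CPM in D, and Rps10 was just short of it, with 6714 and 3374 CPM. The order of abundance was nearly the same in both libraries, with Pearson r = 0.99 and Spearman rho = 0.97 between log2 CPM in P and in D over the 77 genes, which share their library, annotation and mapping.

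**Figure D2:**
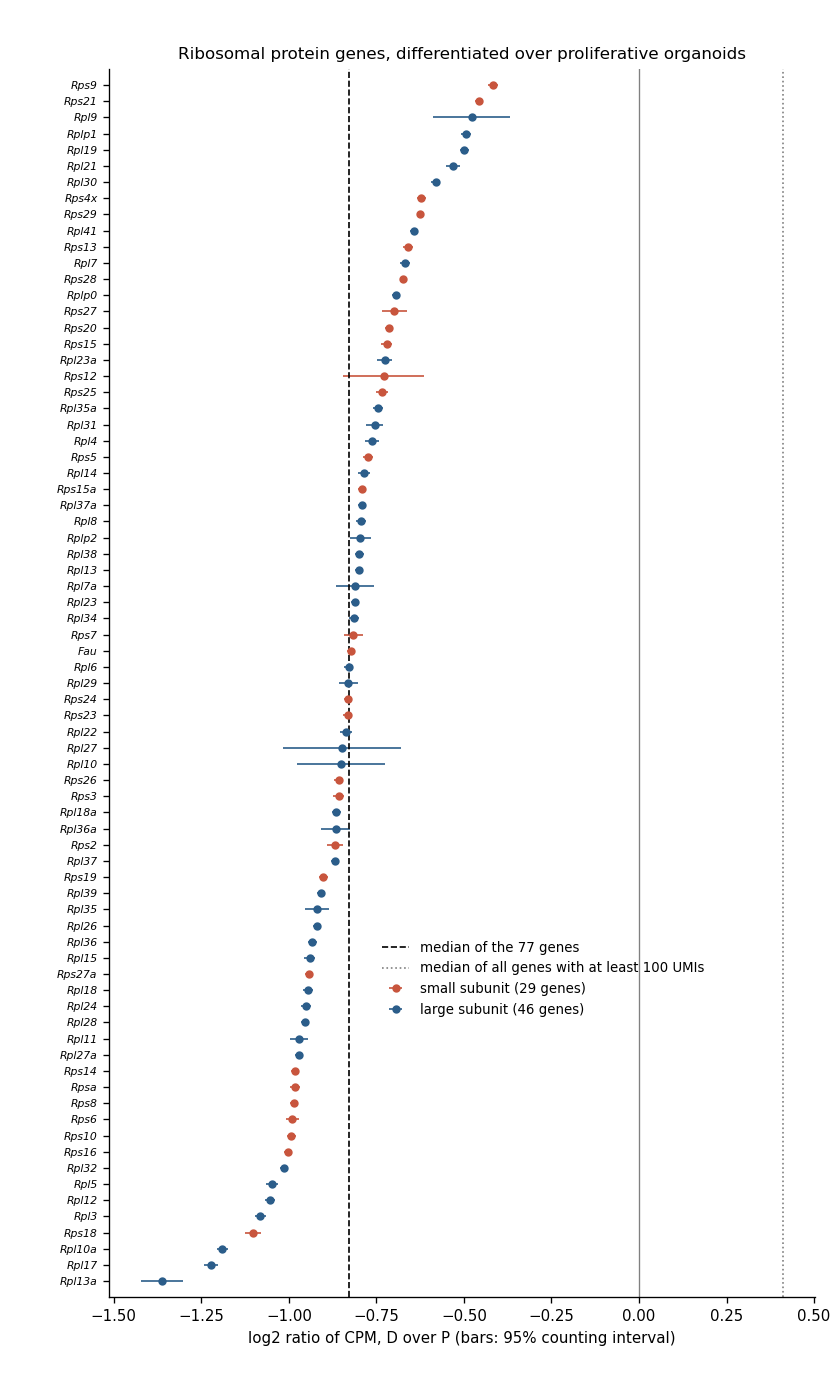
Log2 ratio of D over P on CPM (x axis) for 75 of the 77 ribosomal protein genes (y axis), small subunit in red and large subunit in blue, with bars for the 95% counting interval, a dashed line at the median of the 77 genes and a dotted line at the median of all genes tested. Every gene shown lies below 0, from -1.36 for Rpl13a to -0.42 for Rps9.

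Of the 6 genes with the lowest ratios, all but Rps18 belonged to the large subunit, as did 46 of the 77 genes. Of the 6 with the highest ratios, all but Rps9 and Rps21 belonged to it too. Rpl13a, whose protein is known outside the ribosome for silencing of inflammatory mRNAs, stood at 371 CPM in P and 144 CPM in D, a log2 ratio of -1.36 (interval -1.42 to -1.30). Rpl17, which lines the tunnel through which the new peptide leaves the ribosome, went from 2930 to 1256 CPM, a ratio of -1.22. Rpl10a, a protein of the L1 stalk that moves with the outgoing tRNA, went from 4554 to 1996 CPM, a ratio of -1.19. The intervals of these 3 did not reach that of the gene after them, Rps18, but those of Rpl17 and Rpl10a overlapped. Rps18, in the head of the small subunit, went from 2255 to 1051 CPM, with a ratio of -1.10. Rpl3, which lies near the peptidyl transferase centre, went from 4918 to 2323 CPM, with a ratio of -1.08. Rpl12, at the base of the P stalk, went from 5437 to 2617 CPM, with a ratio of -1.05. Rpl5, Rpl32 and Rps16 were the others that were at least 2-fold lower.

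At the other end, the highest ratio was that of Rps9, a small subunit protein tied to decoding accuracy, at 4297 CPM in P and 3217 CPM in D, a log2 ratio of -0.42 (interval -0.43 to -0.40). Rps21 went from 6838 to 4980 CPM, a ratio of -0.46. Rpl9 had few UMIs, 1885 in P and 1030 in D, and a ratio of -0.48 with a wide interval of -0.59 to -0.37. Rplp1, an acidic stalk protein, went from 4391 to 3116 CPM with a ratio of -0.49. Rpl19, in an expansion of the large subunit that bridges to the small one, went from 5661 to 4006 CPM with a ratio of -0.50, and Rpl21 from 2122 to 1468 CPM with a ratio of -0.53. The ratio was almost unrelated to the level: over the 77 genes, r = -0.03 between log2 CPM in P and the log2 ratio. It was r = -0.20 with the number of codons and 0.04 with the GC content of the transcript.

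By subunit, the medians were close, at -0.82 for the small (SD 0.16 over 31 genes) and -0.83 for the large (SD 0.18 over 46 genes). Groups by role held 1 to 3 genes each, and their medians are descriptions. The P stalk, which recruits the GTPase factors of translation, had all 3 genes above the median of the set: Rplp1 at -0.49, Rplp0 at -0.69 and Rplp2 at -0.80, although the interval of Rplp2 came close to that median. Rpl5 and Rpl11, which with 5S RNA form the particle that binds Mdm2 when ribosome assembly is disturbed, were both below it, at -1.05 and -0.97. The 3 exit tunnel genes were spread widely, with Rpl17 at -1.22, Rpl39 at -0.91 and Rpl4 at -0.76. Rps6, the substrate of the S6 kinases, was at -0.99. Rps2 and Rps3, at the entry of the mRNA channel, were near the median at -0.87 and -0.86. Of the genes made as fusions with ubiquitin or a ubiquitin-like protein, Rps27a was at -0.94 and Fau at -0.82. Rpl41, the shortest ribosomal protein, was at -0.64.

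Levels ranged widely although the proteins are made in nearly equal numbers. In these 3′ counts 1 UMI stands for 1 mRNA whatever its length, and the levels are CPM of each library. The median gene stood at 4937 CPM in P and 3027 CPM in D, and 68 of the 77 genes exceeded 1000 CPM in P and 64 in D. The highest were Rpl39 (9928 CPM in P, 5288 in D), Rps29 (9537 and 6185), Rpl23 (9515 and 5423), Rpl13 (9459 and 5429) and Rps28 (8940 and 5607). The lowest was Rpl27, at 36.4 CPM in P and 20.2 CPM in D. It was detected in 13.1% of P cells and 8.03% of D cells, whereas Rplp0 was detected in every kept cell of both libraries.

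Several of the low levels coincided with mRNA ends that other genes share. For each gene, the last 300 bases of its transcript were cut into words of 56 bases, the length of the cDNA read, and matched to the transcripts of all other genes of the GENCODE annotation, processed pseudogenes included. Cell Ranger does not count reads that fit several genes of its reference equally. That reference may hold fewer kinds of gene than the annotation used here, so a shared word need not mean an uncounted read. Rpl10, Rpl9, Rps27 and Rpl36a had every word in common with another gene, Rps12 94.3% of its words and Rpl27 82.9%. Of the 6 genes under 500 CPM in P, a split chosen after the levels were seen, Rpl10 (64.2 CPM), Rpl9 (70.6 CPM), Rps12 (73.5 CPM), Rpl27 and Rpl7a (342 CPM, 79.2% of words) had such ends. Rpl13a (371 CPM) shared no word. Shared ends were also found at high levels: 17 of the 77 genes shared at least 80% of words, among them Rpl13 (82.9%, 9459 CPM), Rps27a (86.5%, 7546 CPM) and Rpl36 (89.0%, 5820 CPM). Over the 77 genes, log2 CPM in P and the shared part had r = -0.35 and rho = -0.25. Levels of genes with shared ends are uncertain. The ratio of D over P was little related to the shared part of the end (r = 0.10 over the 77 genes). Its median was -0.84 in the 23 genes with no shared word and -0.85 in the 17 genes with at least 80% of words shared.

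Genes close to the ribosome in function differed in direction. Over all genes tested, 22.6% were lower in D, and 4.73% were lower by at least 2-fold. Among 7 ribosomal proteins outside the symbol rule with enough UMIs, 6 were lower in D, none by 2-fold, with a median of -0.66. Rack1, a scaffold on the small subunit, was lowest at -0.87. Rps27l, a paralog of Rps27 known as a p53 target, was higher in D, from 411 to 750 CPM, with a ratio of 0.87. All 5 translation elongation factor genes were lower in D, with a median of -0.77, from Eef1g at -0.92 through Eef1b2 at -0.77 to Eef1d at -0.28. Of 9 other mRNAs known for a 5′ pyrimidine tract, 8 were lower and 3 were lower by at least 2-fold, and their median was -0.50. The nucleolar chaperone Npm1 had the lowest ratio of this list, from 1963 to 674 CPM (-1.54), Pabpc1 was its middle gene at -0.50, and Tpt1 stood at 9530 and 9574 CPM with an interval of -0.00 to 0.02.

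The factors that build ribosomes did not share this pattern on the same scale. Of 31 ribosome biogenesis genes, 6 were lower in D (22.6% of all genes tested) and 3 were at least 2-fold higher (13.5% of all genes tested), and the median of 0.42 was close to that of all genes tested, 0.41. They ran from Nob1 at -0.29 through Rrs1 at 0.42 to Bop1 at 1.28. Of 77 mitochondrial ribosomal protein genes with enough UMIs, 15 were lower, none of them by 2-fold, and 2 were at least 2-fold higher, with a median of 0.30; over all genes tested, 22.6% were lower, 4.73% by at least 2-fold, and 13.5% were at least 2-fold higher. They ran from Mrpl30 at -0.83 through Mrpl39 at 0.30 to Mrpl20 at 1.03. No gene of either list reached below the median of the cytosolic ribosomal protein genes, which held 5.96% of all genes tested under it. Scaled by the median ratio of all genes, the medians were -0.00 for biogenesis and -0.12 for mitochondrial ribosomal proteins, against -1.25 for the cytosolic set.

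The second question was how the ribosomal protein genes varied between cell states within a library. The cells of each library were clustered on all other genes, with the ribosomal protein genes left out of normalization and of the variable genes, so that no cluster was made by the genes described here. Clusters are numbered by size within each library, so that equal numbers in P and D do not make equal cells. In P, cluster 0 (2655 cells) was led by Sprr3, Cnfn and Rptn, genes of cornified epithelium, and 8 of 9 squamous and 10 of 10 intermediate markers had intervals above the other cells. Cluster 1 (2605 cells) was led by Ctla2a and Nbl1, with 5 of 7 basal markers raised. Cluster 2 (1219 cells) was led by Fmo2, Agr2 and Slc7a11, with 3 of 7 basal markers raised. Cluster 3 (339 cells) was led by Ccna2, Hmmr and Nusap1, with 12 of 12 proliferation and 6 of 7 basal markers raised. In D, cluster 0 (2829 cells) was led by Krt1, Agr2 and Lgi2, cluster 1 (1302 cells) by Acta2 and Cav1 with 6 of 7 basal and 12 of 12 proliferation markers raised, and cluster 2 (765 cells) by Ifit1bl1 and Ubd with 6 of 6 luminal markers raised, Upk3a and Upk3b among its leading genes. The proliferation markers together stood at only 122 CPM in D cluster 1, against 4582 CPM in P cluster 3.

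In P the ribosomal protein share was 41.8% of UMIs in cluster 2 and 40.5% in cluster 1, and lower in clusters 3 (34.8%) and 0 (34.3%). In D it was 22.3% in cluster 0, 21.4% in cluster 1 and 17.7% in cluster 2. The widest interval, that of P cluster 3, ran from 34.8% to 34.9%, and no intervals overlapped between clusters. They cover counting error only, and single cells of different clusters overlapped. In P, the quartiles over cells were 30.4% and 38.9% in cluster 0, 37.6% and 44.4% in cluster 1, 39.3% and 45.0% in cluster 2, and 32.3% and 39.3% in cluster 3. In D they were 19.9% and 24.9% in cluster 0, 19.0% and 24.3% in cluster 1, and 14.5% and 19.1% in cluster 2. Mitochondrial shares were 4.71% in P cluster 1, 5.52% in cluster 3, 6.41% in cluster 2 and 6.53% in cluster 0, and 7.41%, 5.73% and 7.70% in D clusters 0, 1 and 2. Median depths ran from 2847 UMIs in P cluster 1 to 4209 in P cluster 0, and from 2674.5 in D cluster 1 to 4420 in D cluster 2. P cluster 2 thus had the highest share with a mitochondrial share close to that of cluster 0. P cluster 3, with raised proliferation markers, held 1585 ribosomal protein UMIs per cell, more than the 1238 of cluster 1, beside 2964 other UMIs per cell against 1819. No cluster of D reached a cluster of P. Over all 12 pairs of a D and a P cluster, all 77 genes were lower in the D cluster, and the median log2 ratio ran from -0.62 to -1.28. The share of all genes tested that were lower in D clusters 0, 1 and 2 was 19.6%, 18.3% and 18.7% against P cluster 0, and 31.1%, 16.9% and 25.2% against P cluster 1. It was 22.8%, 19.8% and 25.3% against P cluster 2, and 51.8%, 41.8% and 50.4% against P cluster 3.

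**Figure D3:**
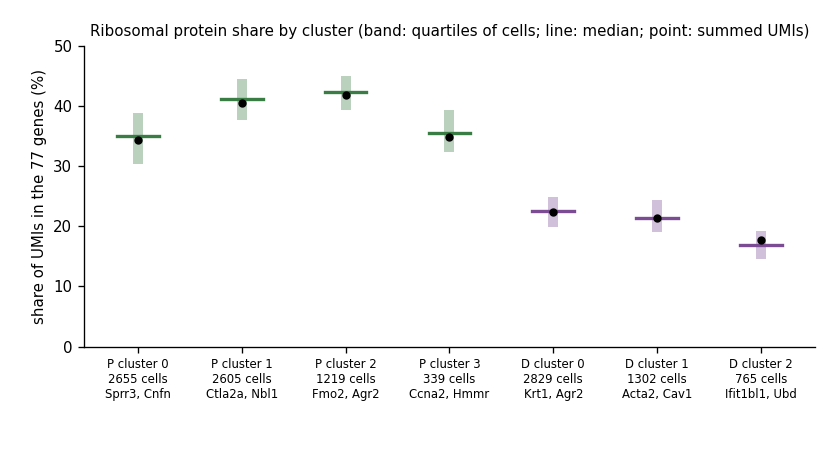
Share of UMIs in the 77 ribosomal protein genes (y axis, %) for the 4 clusters of P (green) and the 3 of D (purple), with a band for the quartiles of cells, a line for the median cell and a point for the summed UMIs of the cluster. The points run from 34.3% to 41.8% in P and from 17.7% to 22.3% in D.

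Below the common level of each cluster, single genes departed from the set. For each cluster, the log2 ratio to the other cells of the same library was taken per gene, and a gene's deviation is that ratio minus the median over the 77 genes. In P cluster 0, 73 genes had intervals below 0 (39.8% of all genes tested) and 1 above it (23.5%), with a median ratio of -0.24 and an SD of 0.14. Fau was the gene above, at 7816 CPM in the cluster and 7335 CPM in the other cells, a ratio of 0.09 and a deviation of 0.34. Rpl7 (0.23) was also among the 3 highest. The lowest were Rpl13a (295 against 444 CPM, deviation -0.34), Rpl12 (4359 against 6474 CPM, -0.33) and Rps12 (-0.30).

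P cluster 1 was close to the mirror image, as 2 large clusters of the same library must be to some extent, since each is part of the other's comparison. In it 71 genes had intervals above 0 (32.8% of all genes tested) and 4 below (23.9%), with a median of 0.19 and an SD of 0.12. Rpl13a (464 against 331 CPM, deviation 0.30), Rps2 (2459 against 1759 CPM, 0.30) and Rpl12 (6727 against 4889 CPM, 0.27) stood highest. Rpl18 (-0.27) and Fau (-0.26) stood lowest. Cluster 2 had the set higher most evenly: 74 genes had intervals above 0 (7.98% of all genes tested) and 0 below (20.4%), the median was 0.20, and the SD of 0.06 was the smallest of the 7 clusters. Its deviations ran from Rpl7 (-0.16), Fau (-0.12) and Rpl7a (-0.12) to Rpl3 (0.12), Rps18 (0.12) and Rpl35 (0.14).

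In P cluster 3, 56 genes had intervals below 0 (10.8% of all genes tested) and 7 above (26.8%), with a median of -0.10. Rpl13a (436 against 367 CPM, deviation 0.35) and Rpsa, the laminin receptor precursor of the small subunit (6312 against 5813 CPM, 0.22), were high. Rpl10 was lowest with a deviation of -0.54, on 65 UMIs in the cluster, followed by Fau (6077 against 7662 CPM, -0.24) and Rpl7 (-0.15). Fau was therefore high in cluster 0 and low in clusters 1, 2 and 3, whereas Rpl13a was low in cluster 0 and high in clusters 1 and 3.

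In D cluster 0, 71 genes had intervals above 0 (15.5% of all genes tested) and 0 below (25.6%), with a median of 0.18. Rps21 (5478 against 4252 CPM, deviation 0.18), Rps29 (0.13) and Rpl30 (0.12) were highest, and Rps2 (-0.19), Rpl13a (-0.17) and Rpl41 (-0.14) lowest. In D cluster 1 the genes split: 44 had intervals above 0 (32.3% of all genes tested) and 20 below (19.7%), with a median of 0.07 and an SD of 0.12. Rps27 (552 against 408 CPM, deviation 0.37), Rpl12 (3088 against 2498 CPM, 0.24) and Rpl15 (0.21) were high. Rps21 (4466 against 5110 CPM, -0.26) and Rplp0 (4289 against 4837 CPM, -0.24) were low. This cluster also held most of the fibroblast marker signal, 233 CPM against 23.3 and 8.66 CPM in clusters 0 and 2, with 3 of 6 markers raised; its part in these values was not tested.

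In D cluster 2, the one with raised luminal markers, 76 genes had intervals below 0 (25.7% of all genes tested) and 0 above (17.1%), with a median of -0.35. Rps27 was lowest (293 against 475 CPM, deviation -0.35), then Rpl12 (1883 against 2806 CPM, -0.23) and Rps18 (-0.12). Rpl41 (3524 against 3674 CPM, deviation 0.29), Rplp0 (0.20) and Rps6 (0.20) kept closest to the level of the other cells. No gene differed by 2-fold between a cluster and the other cells of its library in any of the 7 clusters.

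**Figure D4:**
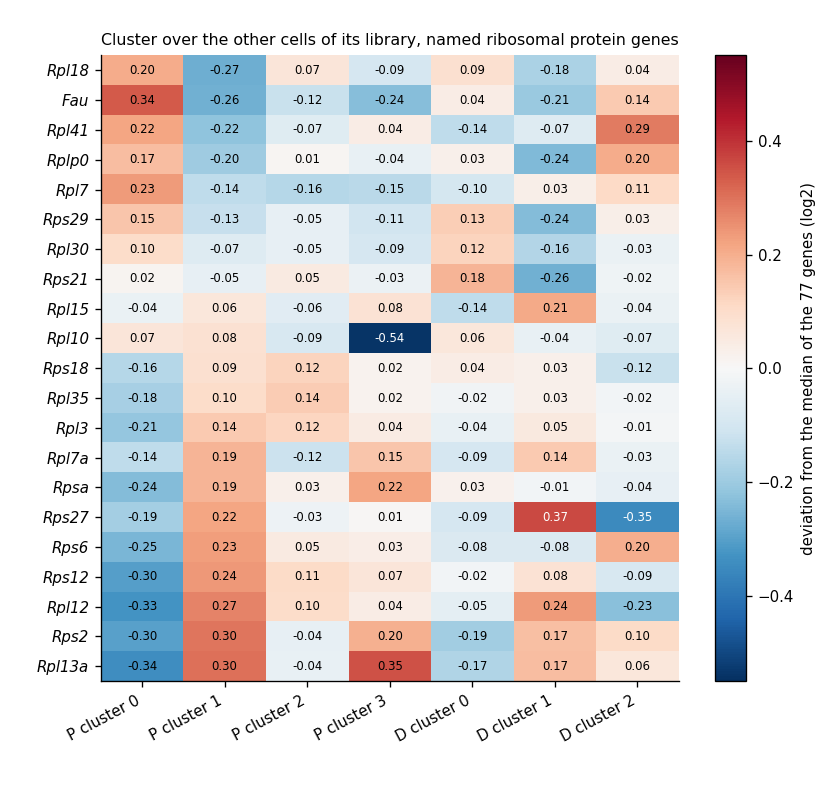
Deviation of the named ribosomal protein genes (rows, ordered by P cluster 1) in each of the 7 clusters (columns), as the log2 ratio of the cluster over the other cells of its library minus the median over the 77 genes. Fau is at 0.34 in P cluster 0 and -0.26 in P cluster 1, and Rps27 is at 0.37 in D cluster 1 and -0.35 in D cluster 2.

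The deviations in cluster 1 of P and in cluster 1 of D, with 5 and 6 of 7 basal markers raised, went largely in the same direction. Over the 77 genes r was 0.70 and rho 0.67, with points that share annotation and mapping. With intervals clear of the median in both, 18 genes were above it in both clusters and 25 below it in both. In another 25 genes the interval held the median in at least 1 of the clusters. These counts have no counterpart over all genes. Rps27, Rpl12, Rpl13a and Rps2 were high in both. Fau, Rpl18 and Rplp0 were low in both. Another 9 genes went opposite ways. Rps6 was among them, with a deviation of 0.23 in P cluster 1 and -0.08 in D cluster 1, and so was Rplp1, at 0.03 and -0.22. The ratios themselves, before the median was taken off (0.19 in P cluster 1 and 0.07 in D cluster 1), were above 0 in P and below 0 in D for 16 genes, against 1.35% of the 8939 genes counted to 100 UMIs or more in both, and the reverse held for 0 genes against 1.99%. P cluster 3, in which 6 of 7 basal markers were raised, had r = 0.45 and rho = 0.55 with D cluster 1. P cluster 2, in which 3 of 7 were raised, had r = 0.15 with it. P cluster 0 and D cluster 2, with 10 and 8 of 10 intermediate markers raised, had r = 0.48. P cluster 0 and D cluster 0, the latter with 5 of 10 raised, had r = 0.42. P cluster 0 and D cluster 1 had r = -0.67. That value is tied in part to the 0.70 above, since P clusters 0 and 1 are each part of the other's comparison.

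**Figure D5:**
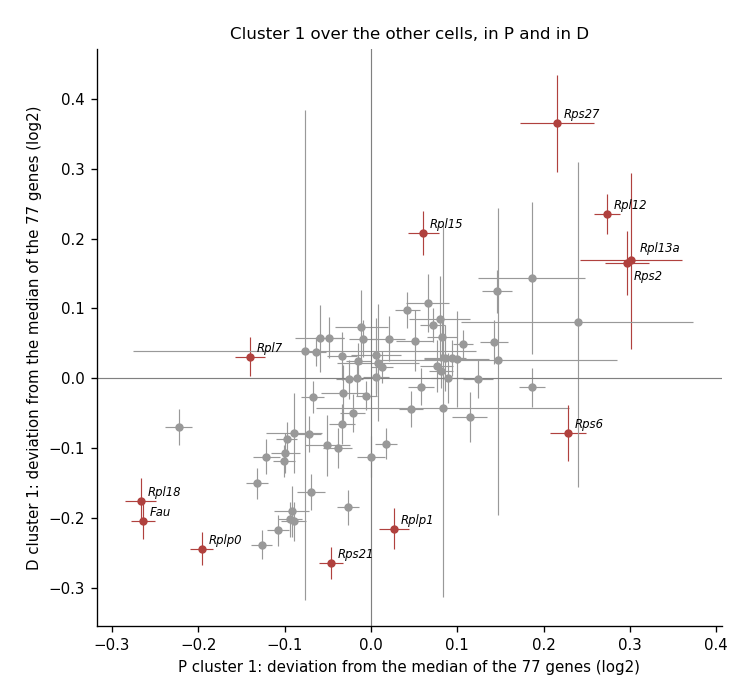
Deviation of 75 of the 77 ribosomal protein genes in P cluster 1 (x axis) and D cluster 1 (y axis), log2, with bars for the 95% counting interval and the named genes in red. Rps27, Rpl12, Rpl13a and Rps2 lie at the upper right, Fau, Rpl18 and Rplp0 at the lower left, and Rps6 and Rplp1 at the lower right.

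No role group lay on the same side of the median in every cluster, but the genes of some groups moved together. Rps2 and Rps3 were both above the median in P clusters 1 (median deviation 0.22) and 3 (0.17) and in D cluster 1 (0.14), and below it in P cluster 0 (-0.22) and D cluster 0 (-0.13). Fau and Rps27a did the opposite, with median deviations of 0.22 in P cluster 0, -0.18 in P cluster 1 and -0.20 in D cluster 1. In every cluster Fau and Rps27a lay on the same side of the median as each other. Rpl5 and Rpl11 lay between -0.13, in P cluster 3, and 0.08, in P cluster 1. The P stalk genes did not stay together: in D cluster 1 they ranged from -0.24 to 0.09. The median deviations of small and large subunit genes were farthest apart in P cluster 0, at -0.05 and 0.02.

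Cell states were also set by marker genes alone, with no clustering. Cycling cells, with at least 2 of 12 proliferation genes detected, numbered 460 in P and 21 in D. Their ribosomal protein share was 35.5% in P against 37.5% in the other cells, and 21.3% in D (interval 21.1 to 21.5) against 21.2%. In P the gap was present in the shallowest quartile of cells (36.8% against 39.9%) and in the deepest (34.5% against 35.7%), but not in the third quartile (37.3% against 37.1%). In cycling P cells 52 of the 77 genes had intervals below 0 (10% of all genes tested) and 6 above (26.5%), with a median ratio of -0.07. Rpl13a (422 against 366 CPM), Rpsa (6222 against 5808 CPM) and Rps2 (2078 against 1958 CPM) were higher in them, and Fau was lower (6456 against 7670 CPM). All 12 proliferation genes were also raised in P cluster 3, so these values cannot be taken as separate from those of that cluster.

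Uroplakins form the plaques of the luminal urothelial surface. Cells with at least 1 UMI of 5 uroplakin genes numbered 303 in P, 4.44% of cells, and 2849 in D, 58.2% of cells. Such UMIs were found in 97.8% of cells of D cluster 2 (median 4420 UMIs). They were found in 67.9% of cells of D cluster 0 (median 3242 UMIs), which held 1922 of the 2849 such D cells. In D cluster 1 (median 2674.5 UMIs) they were found in 13.7% of cells. Uroplakins were not raised in D clusters 0 and 1, and expression and free RNA in the droplets were not told apart. The values of uroplakin-positive D cells are thus not those of D cluster 2 alone. In P, 246 of the 303 cells lay in cluster 0, which had the lowest ribosomal protein share of the P clusters. The values of uroplakin-positive P cells are therefore not separate from those of that cluster. The ribosomal protein share of uroplakin-positive cells was 29.95% in P against 37.9% in the other cells, and 20.6% in D against 22.5%. The share was lower in cells with a uroplakin UMI in all 4 depth quartiles of both libraries, at 30.4% against 36.2% in the deepest quartile of P and 20.7% against 21.9% in that of D. Their mitochondrial shares were higher, 7.08% against 5.83% in P and 7.56% against 6.16% in D.

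Over genes, 76 of 77 had intervals below 0 in uroplakin-positive P cells (11% of all genes tested) and 69 of 77 in those of D (25.9%), with median ratios of -0.36 and -0.16. Rpl12 was among the lowest ratios in both, from 5559 to 3618 CPM in P and from 3197 to 2362 CPM in D. Rpl13a went from 380 to 234 CPM in P and from 170 to 133 CPM in D. Fau was nearly level, at 7592 and 7253 CPM in P and 4262 and 4285 CPM in D. In D, 1 gene had an interval above 0 (18.4% of all genes tested).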

How the data were processed

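Per the labels and the study's methods, the authors demultiplexed reads with bcl2fastq 2.19.0 and counted UMIs with Cell Ranger 3.0.2 on GRCm38/mm10. The deposited matrices hold raw UMI counts per gene and barcode. The genes and lists were chosen with earlier results of these data known. UMIs of kept cells were summed per library, cluster or state and divided by their total. Shares have exact binomial intervals and ratios exact conditional binomial intervals (95%). A check on simulated data drew independent counts, as the intervals assume, and so did not cover spread between cells. Clusters came from Seurat 5.3.0 in R 4.3.3 (2000 variable features, 25 components in P and 21 in D, resolution 0.2). Scrublet called 0 doublets in either library and so did not work here; doublets were kept, and an alternative left out the highest scores (279 P and 213 D cells). Comparisons of all genes used at least 100 UMIs; leading genes needed 50 UMIs in the cluster. Named genes were the 6 at each end of the D over P ratio, the 5 highest levels, the 3 at each end in each cluster and the role groups; of other lists, the largest, middle and smallest. Positions came from GENCODE, start windows from RefSeq. Alternatives changed the cell filter, scaling, depth (2000 UMIs per cell), doublets and clustering. Some of the genes these rules name are not reported here.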

Additional observations from a re-analysis of the deposited data

Results flagged for a closer look

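The barcodes left out by the cell filter also carried ribosomal protein UMIs. The 1376 left-out barcodes of P held 33.1% of their UMIs in the 77 genes, at a mitochondrial share of 11.1%. The 2079 left-out barcodes of D held 7.06%, at a mitochondrial share of 21.6%. With mitochondrial UMIs left out of the total, the left-out barcodes held 37.2% in P and 9.01% in D. In kept cells these shares were 39.7% and 22.8%.

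Some genes had log2 ratios of opposite sign in cluster 1 of P and cluster 1 of D, each against the other cells of its library, with counting intervals clear of 0; the difference was not tested, and each library is 1 sample. The log2 ratios in P and D were 0.141 and -0.194 for Rps21, 0.214 and -0.145 for Rplp1, and 0.0932 and -0.132 for Rps27a. They were 0.0659 and -0.0419 for Rpl19, 0.0608 and -0.168 for Rps29, 0.118 and -0.0923 for Rpl30, and 0.0794 and -0.147 for Rps28. The median ratio of the 77 genes was itself 0.19 in P and 0.07 in D, and of these 7 genes all but Rplp1 lay below it in both clusters. As deviations from the median of the 77 genes, opposite signs were found for Rpl7 (-0.140 in P and 0.0310 in D), Rpl39 (-0.0640 and 0.0379), Rps6 (0.228 and -0.0781) and Rplp1 (0.0264 and -0.215).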

How the results depend on the processing

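No paired analysis was possible because each condition was 1 library. The share in P was 37.43% with a looser filter (500 genes and 20% mitochondrial UMIs in place of 800 and 12%), 36.6% with a stricter one (1000 genes and 10%), 37.03% over all barcodes, 38.02% as a mean over cells, 37.33% without the highest doublet scores, 38.1% thinned to 2000 UMIs and 39.7% without mitochondrial UMIs. The share in D was 20.8%, 21.16%, 19.6%, 21.34%, 21.2%, 21.33% and 22.8% in the same order. The median log2 ratio was -0.85 with the looser filter, -0.80 with the stricter one, -0.92 over all barcodes, -1.17 scaled by UMIs outside mitochondrial and ribosomal protein genes and -1.25 scaled by the median ratio. The number of genes at least 2-fold lower in D, 9, became 16, 5, 26, 65 and 70 in the same order, and 14 as a mean over cells. The gap between the highest and lowest cluster share was 7.50 percentage points in P and 4.65 in D. It was 7.94 and 4.09 with the ribosomal protein genes kept for clustering, 10.8 and 6.79 at resolution 0.4, 7.96 and 4.97 without mitochondrial UMIs, 7.67 and 4.81 without the highest doublet scores, and 7.70 and 5.62 as means over cells. With 1 proliferation gene in place of 2, cycling cells had a share of 36.8% in P, against 37.5% in the other cells. With at least 2 uroplakin UMIs the share was 26.3% in P and 20.4% in D. The order of the genes changed little: the 6 lowest shared at least 5 genes with the main set under every alternative that keeps the scaling, and the 6 highest were the same 6. Depth limits the 6 genes under 500 CPM most, and 1 library per condition limits all of them.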
